A study of Mus musculus with 20 samples.

Results

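The genes described here are 10 B-cell genes: the B-cell receptor subunits Cd79a and Cd79b, the adaptor Blnk, the surface molecules Cd22, Cd72, Ms4a1, Cr2, Fcmr and Fcer2a, and the survival receptor Tnfrsf13c. They were taken by name as 10 of the 18193 genes that the platform annotation names with a probe set of their own, and all of their 13 probe sets, of 45101 on the array, were read in each of 10 mouse blood cell types and 20 arrays. The rule used no measured value, but the members were chosen with earlier results of these data known. A probe set is a group of short probes for 1 transcript. Of the members, 7 had 1 probe set and 3 (Cd22, Ms4a1 and Fcer2a) had 2.

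Per the labels, all cells came from wild-type female C57Bl/6 mice that carried the CD45.1 allele and were 12 to 14 weeks old. The groups were long-term hematopoietic stem cells (LT-HSC), NK cells, B cells, naive T cells of the CD4+ and of the CD8+ lineage, T cells of both lineages labelled as activated by an LPS treatment, monocytes, nucleated erythrocytes and granulocytes, each with 2 arrays. For each array 25000 to 50000 cells had been sorted by flow cytometry from material pooled from 4 samples, and the RNA was amplified by repeated in vitro transcription. The labels do not say which antibodies defined the sorts, and 1 array placed with the naive CD8+ T cells is titled CD48+ and has CD8+ in its source name.

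The B-cell receptor is a membrane immunoglobulin that cannot signal by itself. CD79A and CD79B, its paired partner chains, carry the tyrosine motifs that are phosphorylated after antigen binds, and BLNK gathers the kinases and the phospholipase that act next. CD22 and CD72 are inhibitory co-receptors, CR2 is the complement receptor that lowers the threshold of the response, and the BAFF receptor, the product of Tnfrsf13c, gives mature B cells a survival signal.

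Values are log2 expression values, so a difference of 1 is 2-fold. They were compared within a gene only, since probe sets differ in brightness. A gene was called different where a limma fit over all 20 arrays gave a Benjamini-Hochberg adjusted p under 0.05, taken over all 9810 genes tested, and a log2 difference of at least 1. Errors of differences are standard errors of that fit, and errors of means are SDs over the 2 arrays. Nothing says that the pools held different mice, so p-values measure only the spread between pooled samples. In sorted bulk cells, a larger number of cells of another type and more RNA per cell cannot be told apart.

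The B cell arrays carried the markers of their label. Of 11 measured B cell markers outside the members, 9 were above a log2 value of 5 in both B cell arrays, with list means of 10.70 and 10.36 against 3.78 to 5.66 in the other 18 arrays. Those not above 5 were Pax5, the B-lineage transcription factor (4.71 and 2.91), and Ciita, the activator of MHC class II genes (3.38 and 3.13). T cell markers were near background in B cells, where Themis passed 5 in array 1 and none of 8 did in array 2. The granulocyte markers S100a8 and S100a9 passed 5 in B cell array 1 and not in array 2. In both B cell arrays the erythroid marker Slc4a1, the NK marker Gzma, the monocyte markers Csf1r and Ccr2 and the granulocyte marker Csf3r passed 5. Csf3r did so in every array, and Slc4a1 elsewhere only in granulocytes and nucleated erythrocytes. The plasma cell list had 5 of 7 markers above 5 in both, against 1 to 4 in the other 18 arrays, with 4 in both LT-HSC arrays. The Y-linked genes Eif2s3y and Kdm5d were above 5 in 6 T cell arrays, at 10.73 and 7.71 or more, despite the female label, and at or below 3.45 and 2.72 in the other 14. These were both activated groups and array 1 of each naive group. Results that rest on T cells are given with and without them where a call changes. Activation results cannot be given without them, since no activated array is left.

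The RefSeq promoter table, on build GRCm38.p6, held 8 of the 10 members, not Cd79b or Ms4a1. Shown here are the 250 bases before the annotated start for the receptor subunit, the adaptor, and the members with the highest levels outside B cells, because these 4 span the patterns described below. Capitals mark matches, on either strand, to ATGCAAAT (the octamer of B-cell promoters), CCCNNGGG (an EBF core), GAGGAA (a PU.1 and Ets core), CAGGTG (an E box of E2A), TGTGGT (a Runx core) and TATAAA. The strand is that of the gene, 5′ to 3′.
Cd79a, chr7:24897247-24897496, plus strand: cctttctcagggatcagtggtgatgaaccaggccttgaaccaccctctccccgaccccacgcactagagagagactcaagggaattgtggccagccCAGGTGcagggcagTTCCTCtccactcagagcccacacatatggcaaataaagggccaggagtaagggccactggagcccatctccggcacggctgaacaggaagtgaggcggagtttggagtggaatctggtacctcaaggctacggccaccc
Blnk, chr19:40994222-40994471, minus strand: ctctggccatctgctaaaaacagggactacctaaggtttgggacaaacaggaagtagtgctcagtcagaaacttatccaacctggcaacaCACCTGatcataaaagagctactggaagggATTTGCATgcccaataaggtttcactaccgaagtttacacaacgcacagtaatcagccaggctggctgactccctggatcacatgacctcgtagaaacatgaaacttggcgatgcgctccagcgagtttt
Cd72, chr4:43454627-43454876, minus strand: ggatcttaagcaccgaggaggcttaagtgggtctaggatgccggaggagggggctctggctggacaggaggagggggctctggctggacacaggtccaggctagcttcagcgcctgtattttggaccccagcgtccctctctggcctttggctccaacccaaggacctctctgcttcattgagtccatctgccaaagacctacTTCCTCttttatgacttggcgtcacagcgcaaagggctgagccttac
Tnfrsf13c, chr15:82224381-82224630, minus strand: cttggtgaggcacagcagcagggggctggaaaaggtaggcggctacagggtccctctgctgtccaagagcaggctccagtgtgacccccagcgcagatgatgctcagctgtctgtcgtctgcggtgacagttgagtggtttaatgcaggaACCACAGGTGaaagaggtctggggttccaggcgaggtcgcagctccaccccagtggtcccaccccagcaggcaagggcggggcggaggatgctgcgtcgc

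Over the full windows of 300 bases, which add 50 bases after the start, CAGGTG lay in 7 of the 10 member windows, from 7 of the 8 genes (all but Cd72), and in 20.2% of all 32851 windows in the table. GAGGAA lay in Cd79a, Cd72 and Fcmr and in 28.3% of all windows. The octamer lay in Blnk, with its first base at position -130 relative to the start, and in 1.74% of all windows. CCCNNGGG was in Cd22 (13.7% of all windows), TATAAA in Fcer2a (13.6%) and TGTGGT in Fcer2a and Tnfrsf13c (16.8%), where it overlaps CAGGTG in Tnfrsf13c. These are matches of letters, not sites shown to be bound. GC content of the member windows was 46.0% to 61.7%, against a median of 52.7% over all windows.

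Members were far higher in B cells than elsewhere. Against the mean of the other 9 types, 10 of 10 members were called higher, where 16.4% of all genes tested were, and 0 lower (11.3%). The members' median difference was 8.27, against 0.13 over all genes. Testing required 2 or more arrays above 5. For 4 members (Cd79a, Blnk, Cr2 and Fcmr) fewer than 2 of the 18 other arrays were, so these passed only through their B cell arrays and had to differ. At the level of probe sets 11 of 13 were tested and all 11 were higher, against 16.5% of all probe sets tested.

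**Figure D1:**
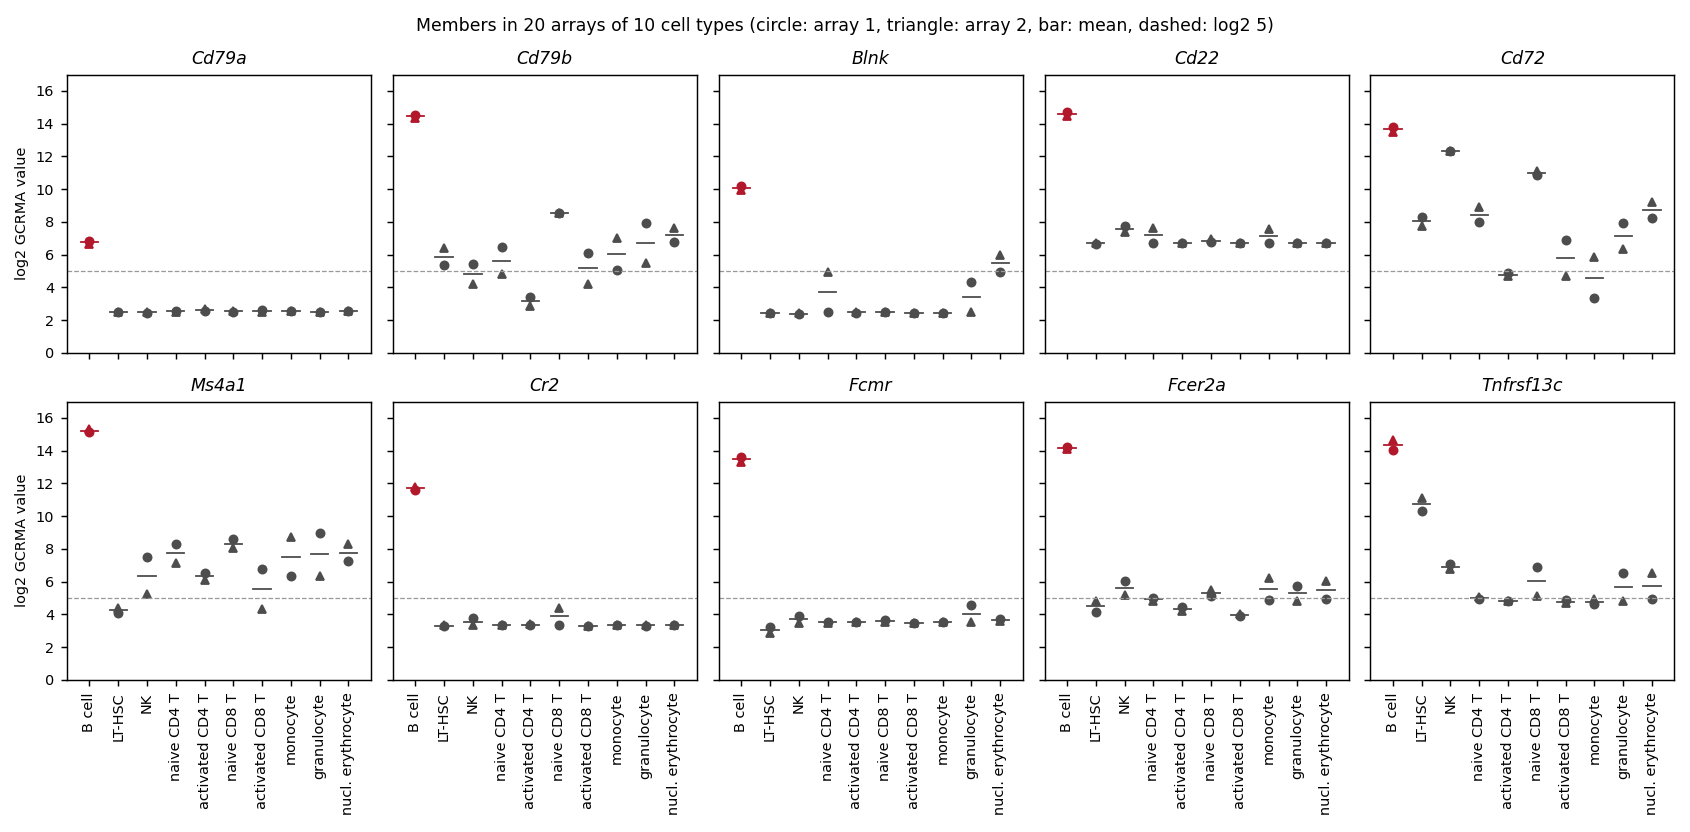
Log2 expression value (y axis) of each of the 10 members in each array of the 10 cell types (x axis); circles are array 1, triangles array 2, bars the mean of both, and the dashed line a log2 value of 5. B cells (red) are highest in every panel; Cd72 is also above 12 in NK cells and Tnfrsf13c above 10 in LT-HSC.

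Of the receptor subunits, Cd79b was at 14.53 and 14.37 in the B cell arrays. In the other 18 arrays it lay between 2.88 and 8.56, with a median of 5.80. The difference from the mean of the other types was 8.54 ± 0.65, limma adjusted p = 4.04e-07. Cd79a was at 6.85 and 6.64 in B cells and between 2.46 and 2.68 in every other array, a difference of 4.20 ± 0.13, limma adjusted p = 3.86e-11. For both subunits the B cell arrays lay above every other array. The subunits are partners in 1 complex, but their levels come from different probes and cannot be set against each other.

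Blnk, the adaptor that follows the receptor, was at 10.17 and 9.98 in B cells. Most other arrays lay close to the median of 2.48, and the exceptions were nucleated erythrocytes (4.96 and 5.97), naive CD4+ array 2 (4.93) and granulocyte array 1 (4.33). The difference from the other types was 7.04 ± 0.48, limma adjusted p = 1.37e-07.

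The inhibitory co-receptors differed in how far they were restricted to B cells. Cd22, a sialic-acid-binding lectin, was at 14.69 and 14.48 in B cells and from 6.67 to 7.74 elsewhere, a difference of 7.66 ± 0.23 (limma adjusted p = 3.26e-11). Elsewhere its median was 6.73 and 5 of 18 arrays were above 6.8, so most lay at the low end of this probe set. Its other probe set was at 4.03 and 3.52 in B cells and from 2.15 to 2.24 elsewhere, and was not tested because no array passed 5. Cd72, a C-type lectin that recruits the phosphatase SHP-1, was at 13.82 and 13.47 in B cells, but the other arrays spread from 3.33 to 12.34. Its difference from the mean of the other types was 5.78 ± 0.60, limma adjusted p = 6.78e-06.

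Among the other surface molecules, Ms4a1, which encodes CD20, was at 15.15 and 15.30 in B cells and from 4.08 to 8.99 elsewhere (8.39 ± 0.76, limma adjusted p = 2e-06). Its other probe set gave 13.56 and 13.78 in B cells, from 2.65 to 7.41 elsewhere and a difference of 8.87 ± 0.71. Both Ms4a1 probe sets thus separated B cells from every other array. Cr2 was at 11.62 and 11.77 in B cells and from 3.31 to 4.42 elsewhere (8.27 ± 0.21, limma adjusted p = 8.52e-12).

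Fcmr, which binds IgM, was at 13.62 and 13.30 in B cells, and its highest value elsewhere was 4.56 in granulocyte array 1. Its difference from the other types was 9.89 ± 0.22 (limma adjusted p = 2.14e-12), against a level at background, with 0 of 18 arrays above 5. Fcer2a, which encodes CD23, was at 14.20 and 14.11 in B cells and from 3.90 to 6.24 elsewhere (9.16 ± 0.36, limma adjusted p = 4.34e-10). The probe sets of Fcer2a disagreed: the other one read 2.36 in both B cell arrays and from 2.28 to 2.42 elsewhere, so it showed no B cell signal and was not tested. Tnfrsf13c was at 14.01 and 14.63 in B cells and from 4.65 to 11.12 elsewhere (8.27 ± 0.48, limma adjusted p = 2.56e-08).

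Whether a member marks B cells against every other type was read from its margin, the difference from the next highest type. A gene counted as a fingerprint gene where the weakest of its 9 one-sided comparisons passed after adjustment and the margin was at least 1. This held for 9 of 10 members, against 1.27% of genes tested (125 genes). Among the 9 are the 4 members that passed the filter only through their B cell arrays, so the count is not read against that share. Margins depend on each probe set's brightness and floor and are not ranked between genes. They were 9.43 ± 0.29 for Fcmr over granulocytes, where it was at background, 8.53 ± 0.48 for Fcer2a over NK cells, 7.81 ± 0.28 for Cr2 over naive CD8+ T cells, 7.01 ± 0.30 for Cd22 over NK cells, 6.90 ± 1.02 for Ms4a1 and 5.89 ± 0.88 for Cd79b, both over naive CD8+ T cells. The margins of Blnk over nucleated erythrocytes (4.61 ± 0.65), Cd79a over activated CD4+ T cells (4.12 ± 0.17) and Tnfrsf13c over LT-HSC (3.60 ± 0.64, limma adjusted p = 0.00441) were also called. The call of Tnfrsf13c was lost without B cell array 2 (3.29, adjusted p = 0.105) and without LT-HSC array 1 (3.20, adjusted p = 0.0639). Fitted on only the 2 types compared at a time, with the spread of 4 arrays, 0 members and 3 of all genes were limma fingerprint calls. In each of these 9 comparisons taken singly, 10 of 10 members were called. Of all genes, 1084 (naive CD4+ T cells) to 4756 (nucleated erythrocytes) were called. These counts too include the 4 members that passed the filter only through their B cell arrays.

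The exception was Cd72. Its margin over NK cells was 1.32 ± 0.80 with a one-sided adjusted p = 1, and the two-sided limma test of B against NK cells gave adjusted p = 0.329. The NK arrays read 12.34 and 12.31, below both B cell arrays. In a limma fit of those 4 arrays alone the difference was 1.32 ± 0.19 with adjusted p = 0.0184, so the call depends on the spread used. Over single pairs of types, 89 of 90 comparisons of a member in B cells with another type were called higher (21.1% over all genes), and Cd72 against NK cells was the one that was not. This count too includes the 4 members that passed the filter only through their B cell arrays.

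**Figure D2:**
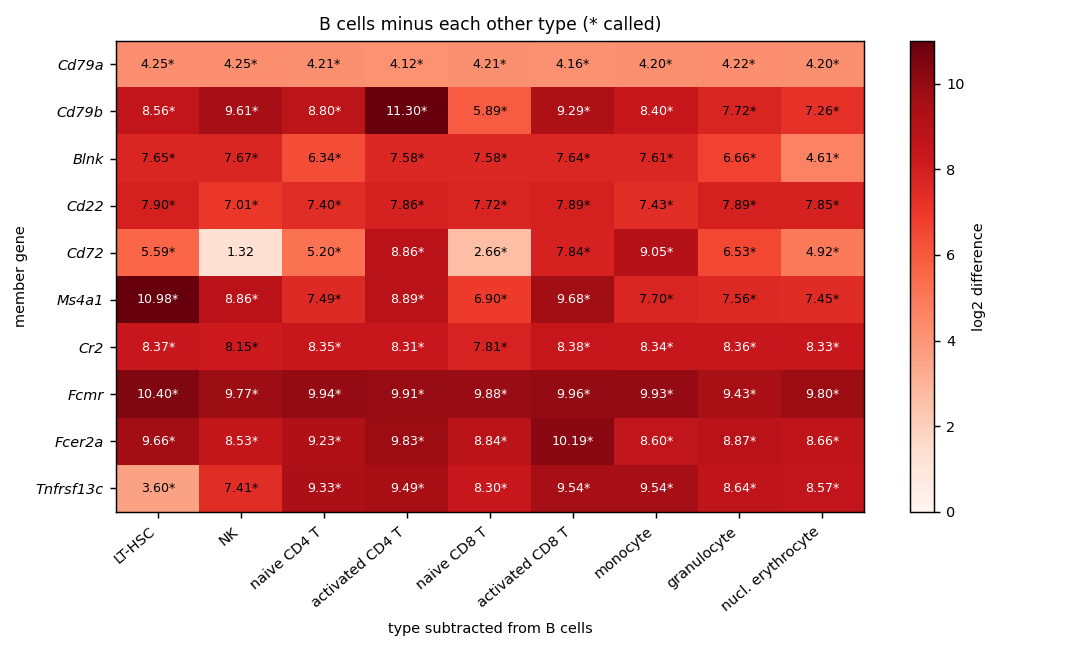
Log2 difference of B cells minus each other type (x axis) for the 10 members (y axis), in color and digits, with a star where called. The lowest cells are Cd72 against NK cells (1.32, not called) and naive CD8+ T cells (2.66), and Tnfrsf13c against LT-HSC (3.60).

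Outside B cells the types in which a member was higher or lower were read in the same way. With each non-B type set against the mean of the other 8, 5 of 90 comparisons were higher (19.5% over all genes) and 9 were lower (20.9%). Without the 6 arrays with Y-linked signal, which removes both activated groups, 4 were lower. Cd79a, Cr2 and Fcmr had no array above 5 outside B cells and Blnk had 1, so most of their comparisons set background against background, and the counts are not read against these shares. Over the 9 types, correlations among the 7 members with a type mean above 5 outside B cells ran from -0.64 (Tnfrsf13c with Ms4a1) to 0.65 (Ms4a1 with Fcer2a), with Cd22 and Fcer2a at 0.55, Cd79b and Ms4a1 at 0.53, Cd79b and Fcer2a at 0.51 and Tnfrsf13c and Cd72 at 0.36. These are descriptions over points that share the same arrays. Most non-B arrays of Cd22 lay in a narrow band at its lowest values, so its correlations rest on few arrays.

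Tnfrsf13c was high in LT-HSC. Both LT-HSC arrays, at 10.33 and 11.12, lay above all other non-B arrays, of which NK cells (7.05 and 6.77) came next. The difference from the mean of the other 8 types was 5.26 ± 0.48, limma adjusted p = 1.1e-06, and LT-HSC exceeded NK cells by 3.81 ± 0.64. The B cell marker list read 3.78 and 3.90 in LT-HSC, where Bank1 (8.24 and 8.54), Blk and Fcrla were above 5. Ms4a1 was at 4.08 and 4.41 there, and the part of B cells in the Tnfrsf13c value was not tested. Tnfrsf13c was lower in activated CD4+ T cells (-1.38), activated CD8+ T cells (-1.43) and monocytes (-1.42), where all 6 arrays lay at 4.92 or below. These 3 calls were each lost when either array of the group was left out.

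Cd72 varied most between non-B types. After NK cells came naive CD8+ T cells at 10.87 and 11.11, nucleated erythrocytes at 8.22 and 9.22 and naive CD4+ T cells at 7.99 and 8.90. NK cells exceeded the mean of the other non-B types by 5.01 ± 0.60 (limma adjusted p = 2.35e-05) and naive CD8+ T cells by 3.51 ± 0.60 (limma adjusted p = 0.000525). NK and naive CD8+ T cells, neighbours in this order, differed by 1.34 ± 0.80 (limma adjusted p = 0.3), which did not pass. Cd72 was lowest in monocytes (3.33 and 5.86, -3.68 ± 0.60) and activated CD4+ T cells (4.88 and 4.68, -3.48 ± 0.60). Activated CD8+ T cells (6.88 and 4.72) were lower by -2.33 ± 0.60, a call lost without array 2 (-1.25, adjusted p = 0.184). The NK marker list was at 12.54 and 11.92 in NK cells, 5.32 and 4.89 in naive CD8+ T cells, 3.61 and 3.33 in naive CD4+ T cells and 3.24 and 3.29 in B cells, and its part in the naive CD8+ value was not tested.

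Cd79b was above the other non-B types in naive CD8+ T cells, at 8.55 and 8.56 (2.97 ± 0.66, limma adjusted p = 0.00314). Without the 6 arrays with Y-linked signal this was 2.64 with adjusted p = 0.0583. Activated CD4+ T cells had the lowest Cd79b, at 3.41 and 2.88 (-3.11 ± 0.66, limma adjusted p = 0.00128). The B marker list read 4.99 and 5.66 in the naive CD8+ arrays and 4.38 and 4.08 in the activated CD4+ arrays, and its part in these differences was not tested.

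Blnk was higher in nucleated erythrocytes than in the mean of the other non-B types (2.74 ± 0.48, limma adjusted p = 0.000216), and both of its arrays lay above every other non-B array, narrowly so against naive CD4+ array 2. Granulocyte markers averaged 10.59 and 11.85 and the B marker list 5.05 and 5.13 in the erythrocyte arrays, with Pou2af1 at 9.04 and 9.59 and Spib at 7.62 and 7.53, and their part in the Blnk value was not tested. Ms4a1 was lower in LT-HSC (-2.91 ± 0.77, limma adjusted p = 0.00579). That call was lost without LT-HSC array 1 (-2.75, adjusted p = 0.0653) and with the probe set of largest variance (-0.98, adjusted p = 0.259). Fcer2a was lower in activated CD8+ T cells (-1.17 ± 0.36, limma adjusted p = 0.0134), where it read 3.90 and 4.02. That call was lost without array 1 (adjusted p = 0.0985) or array 2 (adjusted p = 0.0718), and with the mean of its probe sets the value was -0.59. Cd79a, Cd22, Cr2 and Fcmr had no such call in any of the 9 non-B types.

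**Figure D3:**
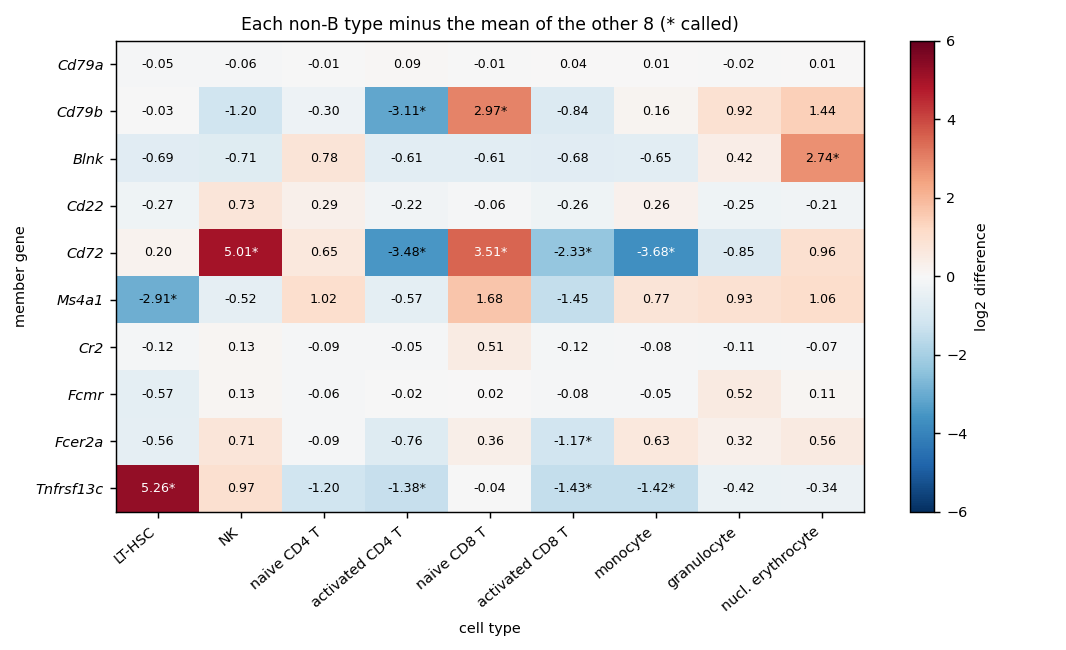
Log2 difference of each non-B type (x axis) from the mean of the other 8 non-B types for the 10 members (y axis), in color and digits, with a star where called. The largest positive values are Tnfrsf13c in LT-HSC (5.26) and Cd72 in NK cells (5.01), and the rows of Cd79a, Cr2 and Fcmr are near 0.

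Activation of T cells is the only treatment in the series. Against naive CD4+ T cells, 2 of 10 members fell in activated CD4+ T cells (18.2% of all genes did) and 0 rose (14.9%). Cd79a, Blnk, Cr2 and Fcmr had no T cell array above 5 and little room to fall, so these counts are not read against the shares. Cd72 read 7.99 and 8.90 in naive and 4.88 and 4.68 in activated CD4+ arrays, with no overlap, and fell by 3.66 ± 0.80 (limma adjusted p = 0.00276). Cd79b read 6.45 and 4.84 in naive and 3.41 and 2.88 in activated arrays and fell by 2.50 ± 0.88 (limma adjusted p = 0.0384). The Cd79b call was lost without naive array 1 (-1.69, adjusted p = 0.263), which carried the Y-linked signal, without either activated array (-2.76 and -2.23), and in a limma fit of these 2 groups alone (adjusted p = 0.0719).

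Against naive CD8+ T cells, 3 of 10 members fell in activated CD8+ T cells (15.7% of all genes) and 0 rose (14.4%). For the same reason these counts are not read against the shares. Cd72 went from 10.87 and 11.11 to 6.88 and 4.72, a fall of 5.19 ± 0.80 (limma adjusted p = 0.000305). Cd79b went from 8.55 and 8.56 to 6.09 and 4.23 and fell by 3.39 ± 0.88 (limma adjusted p = 0.00906); the call was lost without activated array 2 (-2.46, adjusted p = 0.105) and in a limma fit of these 2 groups alone (adjusted p = 0.0528). Fcer2a went from 5.12 and 5.51 to 3.90 and 4.02 and fell by 1.36 ± 0.48 (limma adjusted p = 0.044), a call lost when any 1 of the 4 arrays was left out and with arrays centred on their medians (-1.32, adjusted p = 0.0548).

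Cd72 in activated against naive cells was called in both lineages also with the naive arrays numbered 1 or numbered 2 left out. The difference between the responses of CD8+ and CD4+ cells was called for 0 members in a limma interaction test, where 0.326% of all genes were higher and 0.336% lower. For Cd72 it was -1.52 with a 95% interval of -3.96 to 0.91. The B marker list read 5.43 and 5.56 in naive and 4.38 and 4.08 in activated CD4+ arrays, and 4.99 and 5.66 against 4.53 and 3.79 in CD8+ arrays, and its part in the falls was not tested.

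Between the 2 B cell arrays 0 of 10 members differed by over 2-fold, where 2.58% of all genes were that much higher in array 1 and 1.96% in array 2, so the count does not set the members apart. In granulocytes 6 of 10 members were over 2-fold higher in array 1 (8.71% of all genes), with Ms4a1 at 8.99 and 6.34 and Cd79b at 7.95 and 5.50. The B marker list was also higher in granulocyte array 1 (5.55 against 4.58), as was the erythroid list (7.84 against 5.89), and their part was not tested. Monocyte array 2 was over 2-fold higher than array 1 for 4 members (17.1% of all genes), nucleated erythrocyte array 2 for 4 (7.15%), and activated CD8+ array 1 for 3 (7.41%).

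**Figure D4:**
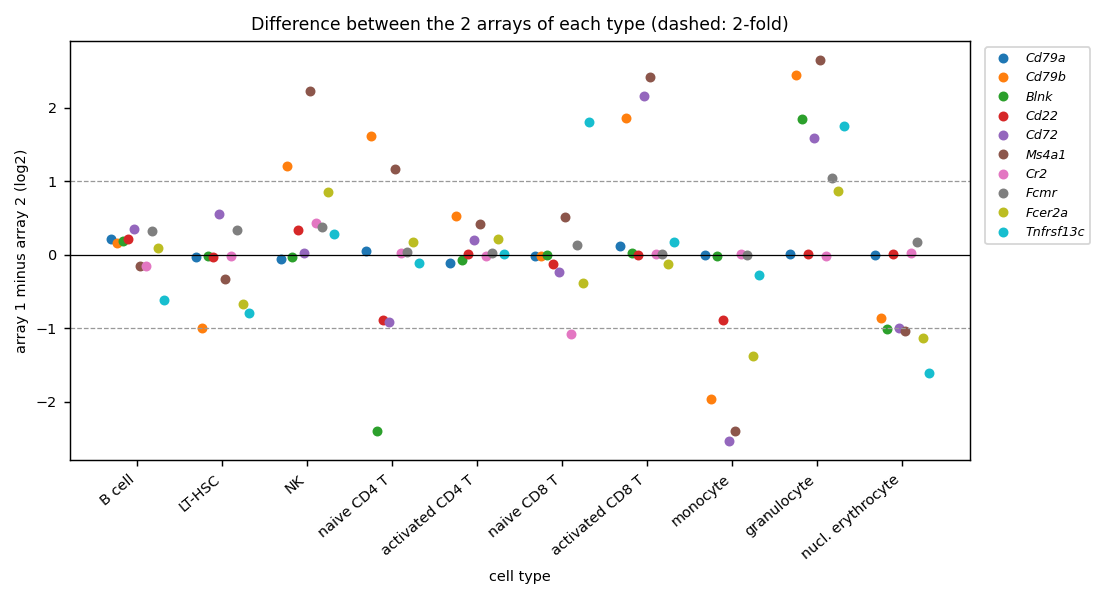
Difference between array 1 and array 2 in log2 units (y axis) for each member (color) in each cell type (x axis); dashed lines mark 2-fold. All members lie between the dashed lines in B cells, and 6 lie above the upper one in granulocytes.

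Lists of other genes of the pathway were drawn up from general knowledge, with earlier results of these data known. They were read in the same comparison of B cells with the mean of the other types. In it 16.4% of all genes tested were higher and 11.3% lower, the shares that stand beside each list count below. Of 31 tested kinases and adaptors of the receptor pathway, 19 were higher and 0 lower, with a median difference of 1.61 against 0.13 over all genes. A gene above the mean of the other types need not be above each of them. Of the 31, 2 were fingerprint genes (1.27% of all genes tested). Syk averaged 12.82 in B cells and 12.98 in monocytes, and Btk reached 8.25 in granulocyte array 1 against 7.24 and 8.70 in B cells. Rasgrp3, a Ras exchange factor (8.80 ± 0.54), the Src-family kinase gene Blk (7.73 ± 0.31), the scaffold gene Bank1 (6.36 ± 0.72) and the kinase gene Btk (4.38 ± 0.52) had the largest differences, while Vav1 (0.77) and Bcl10 (0.79) were not called.

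Of 15 tested genes from a list of inhibitory receptors, related molecules and phosphatases, 10 were higher and 3 lower. Of the 15, 3 were fingerprint genes. Fcrla (7.47 ± 0.57), Fcrl1 (6.12 ± 0.28), Siglecg, a lectin related to Cd22 (6.04 ± 0.28), and Btla (5.07 ± 0.63) were the largest. Cd5 (-2.34), Cd300a (-1.79) and Lair1 (-1.75) were lower in B cells. The Cd5 call was lost without the 6 arrays with Y-linked signal (-1.2). That of Lair1 was lost without B cell array 1 (-1.72) or array 2 (-1.78), and with the mean of all probe sets its value was -0.98. Ptprc, which encodes CD45, and Ptpn22 were not called (0.44 and -0.07).

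In the BAFF and APRIL system, Tnfrsf13b, which encodes the receptor TACI, was higher in B cells (5.96 ± 0.67), and Nfkb2, Relb and Birc3 were higher by 1.96, 1.64 and 1.55. Tnfrsf13b was the 1 fingerprint gene of this list. Nfkb2 reached 7.87 in activated CD8+ array 2 and Birc3 13.51 in monocyte array 1, above their B cell means of 7.22 and 12.74. Tnfsf13b, which encodes BAFF, was lower (-1.96 ± 0.39), at 2.33 and 2.34 in B cells against up to 11.16 in granulocyte array 2. Of this list of 7 tested genes 5 were higher and 1 lower, and Traf2 (0.16) was not called. Without B cell array 1 the number higher was 3, and with the mean of all probe sets 0 were lower (Tnfsf13b -0.89). Tnfrsf17, which encodes the receptor BCMA, read 2.08 in B cells and 2.06 to 2.14 elsewhere and was not tested, and the APRIL gene Tnfsf13 was not analysed here.

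Of 20 further B cell surface genes 19 were higher, led by Ly6d (8.90 ± 0.76), the chemokine receptor gene Cxcr5 (7.86 ± 0.25), Cd74, the invariant chain (6.69 ± 0.66), and Ly86 (6.61 ± 0.76), and Cd53 (0.88) was not called. Of the 20, 6 were fingerprint genes (1.27% of all genes tested). Ccr6 averaged 6.00 in B cells and at most 2.04 in another type, and Icosl 6.35 and at most 3.43. Cxcr5 was above 5 outside B cells only in naive CD8+ array 2 (5.45). These genes passed the filter only through their B cell arrays and had to differ, so neither count is read against its share. Early B cell genes were mixed, with 3 of 8 higher (Vpreb3 4.58, Cd93 2.35, Sox4 1.73) and 4 lower (Erg -2.66, Il7r -2.10, Dntt -1.93, Lef1 -1.27). Vpreb3, at most 1.57 in any other array, also passed the filter only through its B cell arrays. It was the 1 fingerprint gene of this list. Cd93 and Sox4 averaged 12.66 and 9.34 in LT-HSC, above 8.52 and 5.46 in B cells. The Sox4 call was lost with no filter (limma adjusted p = 0.0649) and without B cell array 2 (1.00). Those of Cd93 (2.00) and Il7r (-1.95) were lost without B cell array 1. With the mean of all probe sets 1 gene of this list was higher, Cd93 was at 0.58 and Lef1 at -0.65. Without the 6 arrays with Y-linked signal the calls of Sox4 (1.45) and Cd93 (1.53) were both lost. In this list 1 gene was higher with the stricter filter, without either B cell array, or without those 6 arrays. Flt3 was not called (-0.97). Of 2 immunoglobulin and joining chain genes tested, Ighm (3.51 ± 0.49) and Jchain (4.39 ± 0.86) were both higher. Ighm read up to 12.95 outside B cells, in monocyte array 1, against 14.10 and 13.65 in the B cell arrays.

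Relatives of the members went both ways. Of 14 tested relatives of members, 3 were higher (Cd55 4.42, Ms4a4c 4.31, Ms4a6c 3.35) and 5 lower, among them Lcp2, the relative of Blnk in T and myeloid cells (-6.56 ± 0.21), Ms4a6d (-2.11), Ms4a4b (-1.88) and Siglecf (-1.57). Without a filter on low values 3 were lower, since Ms4a6d (limma adjusted p = 0.11) and Ms4a4b (limma adjusted p = 0.0787) lost their calls. They also lost them without either B cell array, and without the 6 arrays with Y-linked signal (-2.09 and -1.36). Cr1l (0.13) and Ms4a6b (-0.04) were not called. Of the 14, 0 were fingerprint genes, and Ms4a6c reached 12.41 in naive CD4+ array 2 against 11.14 and 11.26 in B cells. The 3 of 14 higher lie near the share over all genes (16.4%), so that count does not set the relatives apart. Lcp2 was at 2.64 and 2.25 in B cells and at up to 11.45 in monocyte array 2. All 7 tested genes of the T-cell receptor list, Lcp2 included, were lower in B cells, with Cd3d at -3.80, Zap70 at -3.52 and Cd3g at -3.47.

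The genes outside the members whose 10 cell type means most resembled the average member profile were Blk (Pearson r = 0.9912), Iglv1 (0.9855), Ccr6 (0.9826), Hepacam2 (0.982), Cdh17 (0.9808) and Vpreb3 (0.9805), of 9800 genes compared. These values rest on B cells being the single high point. Over the 9 non-B types, the genes closest to Cd72 were Dennd4c (0.98), Ppp4r3a (0.937) and Lgals1 (0.928). Those closest to Tnfrsf13c were Zfp975 (0.971), Adgrl4 (0.971) and Pxdc1 (0.97), and those closest to Blnk were Fbxo5 (0.961), Daam1 (0.953) and Rb1 (0.946). With 9 points such values are a description.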

How the data were processed

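RNA was measured on Affymetrix Mouse430_2 arrays. The deposited values are on a log2 scale, and the submitters' processing notes name GCRMA; its version is not given in the sources used here. They ranged from 0.37 to 16.85, with array medians of 3.08 to 3.27. Of 45101 probe sets 34945 had 1 gene symbol, 932 several, 9160 were unlisted and 64 were controls. The probe set with the highest mean stood for each of 18193 genes, and 9810 genes with at least 2 arrays above 5 were tested. Groups came from titles, and for 1 array from its source name. limma 3.58.1 in R 4.3.3 (lmFit, eBayes) was fitted with 1 mean per type and 10 residual degrees of freedom, with Benjamini-Hochberg adjustment; the number of arrays limits precision. The members and gene lists were chosen with earlier results of these data known. Genes named from a list were up to 4 called in each direction and up to 2 not called; 6 genes were named for likeness to the members and 3 to each member outside B cells. The fit was tested on simulated data of 9810 genes: of 200 changed by a log2 value of 2 in B cells against the mean of the others, 85% were recovered with 8 false calls, and the fingerprint rule recovered 48% of the 100 changed upward. No 2 arrays were duplicates, with at most 28% identical values. Same-numbered arrays did not deviate together (9 of 45 type pairs had a correlation above 0.1, from -0.26 to 0.21). Alternatives changed the filter, normalization, probe set rule, fit and arrays used. When a B cell array is left out, re-applying the filter drops members, so a version with the genes tested in all 20 arrays was added after those counts had been seen, and both are given.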

Additional observations from a re-analysis of the deposited data

How the results depend on the processing

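With 35 settings and 112 results, no called member changed direction. The replicate number used as a block (replicate block) left 9 fingerprint members and 2 members lower in activated CD8+ T cells, where Fcer2a was lost (adjusted p = 0.0516), and changed no other member call; Ms4a6d, a relative, also lost its call (adjusted p = 0.054). With a stricter filter (4 arrays above 6), which tests fewer genes, fingerprint members numbered 5, members higher in B cells 6, pairs 53 and probe sets 7. Fits of only the groups compared gave 0 fingerprint members and 1 for CD4+ activation, and no filter gave 1 for CD4+ activation. Leaving out 1 array gave 5 to 9 fingerprint members, 1 to 2 for CD4+ and 1 to 3 for CD8+ activation. The low of 5 came without B cell array 2 and was 6 without array 1: with 1 B cell array left, Cd79a, Cr2 and Fcmr no longer pass the filter, so 7 members were tested. With the genes tested in all 20 arrays kept, a version added after those counts were seen, these were 9 without array 1 and 8 without array 2, and CD4+ activation gave 1 in both. Uncalled genes changed sign: Ms4a6b was 0.01 with arrays centred on medians, 0.46 without the 6 Y-signal arrays, 0 with naive arrays 1 left out, and -0.18 to 0.09 with 1 array left out (0.04 without B cell array 1 under either gene set), where Ptpn22 ran from -0.25 to 0.11 and Traf2 from -0.21 to 0.53. Other causes were not tested. A probe set near background gives no reliable difference.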
